A study of Mus musculus with 4 samples.

Results

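The postsynaptic density genes examined here are 34 genes, out of 24532 gene identifiers in the tables, that encode scaffold proteins of the synapse and proteins that regulate them. They were chosen by name and matched by NCBI gene number, and all 34 were found. RNA was sequenced from the granule-cell-enriched (GCE) part of the vermis, the midline of the cerebellum, in 2 wild-type (WT) mice and 2 heterozygous *Kdm3b* mice (*Kdm3b*+/-), with 1 library per mouse. The mice were adult male littermates. The *Kdm3b*+/- mice carry, in every cell, a gene-trap vector within 1 copy of *Kdm3b*, which encodes a histone H3 lysine 9 demethylase, and the line goes back to a single targeted embryonic stem cell line, first backcrossed to C57Bl/6N and later to C57Bl/6J mice. The WT mice carry no targeted allele. The authors name the tissue as GCE, while the sample labels say only cerebellum, and it was cut by hand from vermal slices.

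The postsynaptic density is a protein layer under the membrane of excitatory synapses, where scaffold proteins hold glutamate receptors next to signaling enzymes and the actin cytoskeleton. In the usual picture, Dlg proteins bind receptors and channels, Dlgap proteins join Dlg to Shank, and Shank joins Homer, which reaches metabotropic glutamate receptors and the calcium channels of internal stores. In the cerebellum these proteins serve the synapses of parallel fibers on Purkinje cells and of mossy fibers on granule cells, and gephyrin does a like task at inhibitory synapses.

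Expression is given as TPM (transcript abundance), scaled to gene length and to a fixed total per library, which is meant to make levels comparable between genes. For some members TPM and mean read depth ranked the genes differently, as given below. The libraries held between 4.92 and 6.69 gigabases of aligned sequence, estimated from deposited coverage and FPKM. *Kdm3b* itself stood at 9.10 and 11.0 TPM in WT and at 8.30 and 7.90 TPM in *Kdm3b*+/- mice (log2 fold change -0.27 ± 0.17, standard error or SE, adjusted p = 0.424 from limma), and the value was -0.15 without WT mouse 2 and -0.13 with correction for the length and GC content of transcripts. These are RNA values, and the paper reports by immunoblot that KDM3B protein was significantly reduced in the vermis and flocculus of the mutants. Genotypes were compared on log2(TPM + 1) with limma in the 13652 genes that reached a mean TPM of 1. A gene was called differentially expressed (DEX) where it differed by over 1.2-fold and its adjusted p was under 0.05. By this rule 63 genes were DEX, 16 higher and 47 lower in *Kdm3b*+/- mice, and after median-ratio scaling 21 were higher and 37 lower. An exact permutation test of 2 mice against 2 cannot give a p below 0.333. The granule cell marker *Gabra6* had a TPM between 984 and 1200, but the Purkinje cell marker *Pcp2* (133 to 281) and the oligodendrocyte marker *Mbp* (10521 to 12577) were also present in every library.

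None of the 34 members was DEX by limma, while 0.461% of all tested genes were. The TPM minimum was passed by 31 members, and *Dlgap2*, *Grip2* and *Kalrn* fell below it. An unadjusted p under 0.05 was found for 5 members, *Homer3*, *Mpp3*, *Ncdn*, *Dlgap1* and *Baiap2*, all with lower TPM in both *Kdm3b*+/- mice than in both WT mice. That is 16.1% of the tested members, beside 17.0% of all tested genes, so the share is near the background. Taken by direction, 11.5% of all tested genes had such a p and a lower value, and 5.47% a higher one. In 16 of the 31 members (51.6%) the groups did not overlap, 12 lower and 4 higher, where 51.3% of all tested genes had no overlap (32.0% lower and 19.2% higher). The mean was lower in *Kdm3b*+/- mice for 20 members (64.5%), beside 60.4% of all tested genes. With median-ratio scaling or with correction for the length and GC content of transcripts it was lower for 15, beside 50.7% and 49.8% of all genes. With the latter correction 3 members had an unadjusted p under 0.05 and lay lower (*Homer3*, *Ncdn* and *Mpp3*) and 2 lay higher (*Dlgap4* and *Shank3*), where 7.63% of all genes lay lower and 7.7% higher with such a p. The median log2 fold change of the tested members was -0.07, and that of all tested genes was also -0.07. As a group, the members stood close to the other genes, and *Homer3* had the lowest fold change among them.

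**Figure D1:**
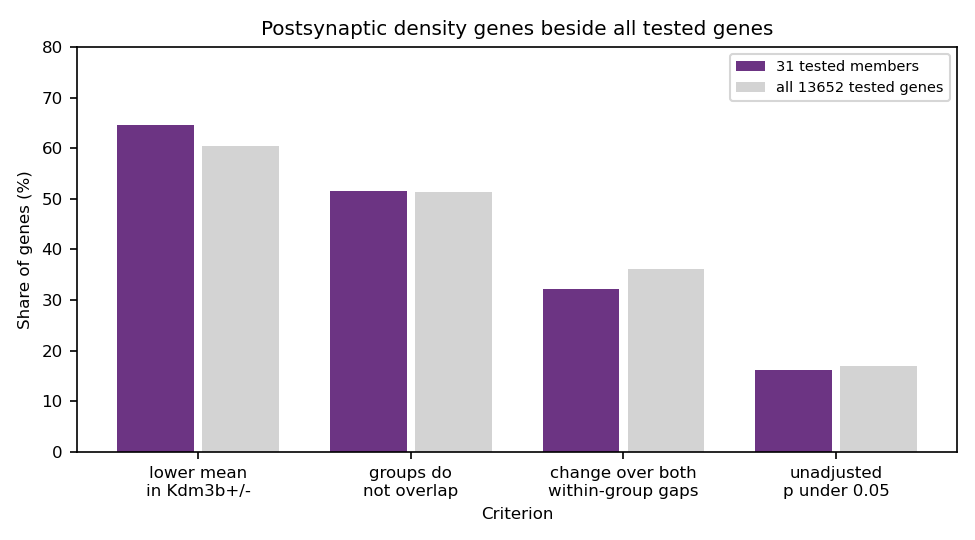
Share of genes, in percent, that met each of 4 criteria among the 31 tested postsynaptic density genes (purple) and among all 13652 tested genes (grey). The paired bars lie close together for each criterion, as with 51.6% against 51.3% for groups that do not overlap.

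The levels of the members spanned a wide range. *Ncdn* (mean TPM of 332 over the 4 libraries), *Mpp3* (296) and *Dlgap1* (190) had the highest TPM, followed by *Pick1* (110) and *Lin7a* (103). Mean read depth ranked them differently. *Dlgap1* had 31.5 to 43.4 per base and *Lin7a* 18.5 to 33.9, against 228 to 294 for *Pick1*. The least abundant were *Dlgap2* (0.247), *Kalrn* (0.526) and *Grip2* (0.742). The TPM of all 34 members summed to 1699 and 1976 in WT and to 1419 and 1562 in *Kdm3b*+/- mice. Both *Kdm3b*+/- sums lay below both WT sums (exact permutation test, two-sided p = 0.333, the smallest this design allows).

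**Figure D2:**
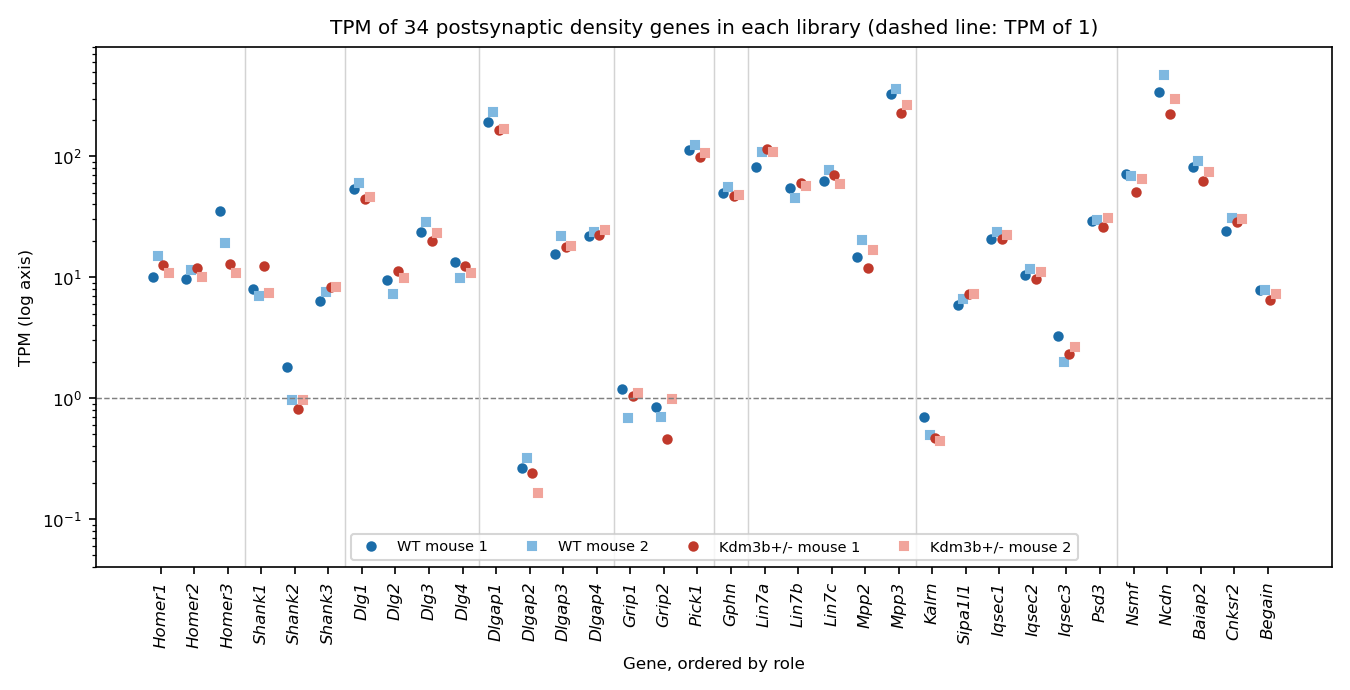
TPM on a log axis of each of the 34 members in the 4 libraries, with WT mice in blue and *Kdm3b*+/- mice in red, and genes ordered by role. *Ncdn* and *Mpp3* lie above 222 in every library, and *Dlgap2* and *Kalrn* lie below 1 in every library.

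The Homer proteins bind proline-rich motifs of metabotropic glutamate receptors, inositol trisphosphate receptors and Shank, and their long forms assemble through a coiled coil. *Homer3* (NCBI gene 26558, chromosome 8, 70282999 to 70294361, forward strand) is the Homer gene known for its abundance in Purkinje cells. Its TPM was 35.1 and 19.1 in WT and 12.8 and 10.8 in *Kdm3b*+/- mice. The groups did not overlap, but WT mouse 1 stood far above the other 3 mice. The mean was 27.1 ± 11.3 in WT and 11.8 ± 1.41 in *Kdm3b*+/- mice (SD, n = 2 each), and the log2 fold change was -1.08 ± 0.25 (SE, unadjusted p = 0.00202, adjusted p = 0.125 from limma). The WT mice differed from each other by 0.85 on the same scale and the *Kdm3b*+/- mice by 0.23. Without WT mouse 1 the log2 fold change was -0.66 (adjusted p = 0.102), and *Homer3* was DEX without WT mouse 2 (-1.50, adjusted p = 0.0402) and without *Kdm3b*+/- mouse 1 (-1.19, adjusted p = 0.0293). In these limma fits the single library left in a group is assumed to vary like the others, and 0.154% of all tested genes were DEX without WT mouse 1, 0.205% without WT mouse 2 and 0.886% without *Kdm3b*+/- mouse 1.

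*Homer1* (chromosome 13), whose short activity-induced form lacks the coiled coil, stood at 10.1 and 14.9 TPM in WT and at 12.6 and 10.8 TPM in *Kdm3b*+/- mice. *Homer2* (chromosome 7) had 9.63 and 11.4 against 11.8 and 9.99. For both genes the groups overlapped, and the log2 fold changes were -0.07 ± 0.20 (SE) and 0.05 ± 0.17 (SE). After median-ratio scaling the *Homer1* value was 0.00070. The tables give 1 value per gene, so the short and long forms of *Homer1* were not separated.

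The Homer genes were then set against each other within each library, where the scaling of a library cancels. *Homer3* made up 64.0% and 42.0% of the summed Homer TPM in WT, but 34.3% and 34.1% in *Kdm3b*+/- mice. In WT mouse 1 *Homer3* was 3.48 times as abundant as *Homer1*, and in WT mouse 2 1.28 times, while in the *Kdm3b*+/- mice the ratios were 1.01 and 0.998. The difference in share was -18.8 percentage points, with group means of 53.0 ± 15.6% and 34.2 ± 0.140% (SD, n = 2 each, exact permutation test, two-sided p = 0.333). Without WT mouse 1 it was -7.80 percentage points. Thus by TPM the 3 Homer genes were about equally abundant in both *Kdm3b*+/- mice, and *Homer3* led in both WT mice. The mean read depth of *Homer1* in *Kdm3b*+/- mice was only 4.10 to 4.25 per base. That of *Homer2* was 30.1 to 30.8 and that of *Homer3* was 32.9 to 33.8. The TPM of *Homer1* did not follow its depth, which limits the shares and the ratios to *Homer1*.

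**Figure D3:**
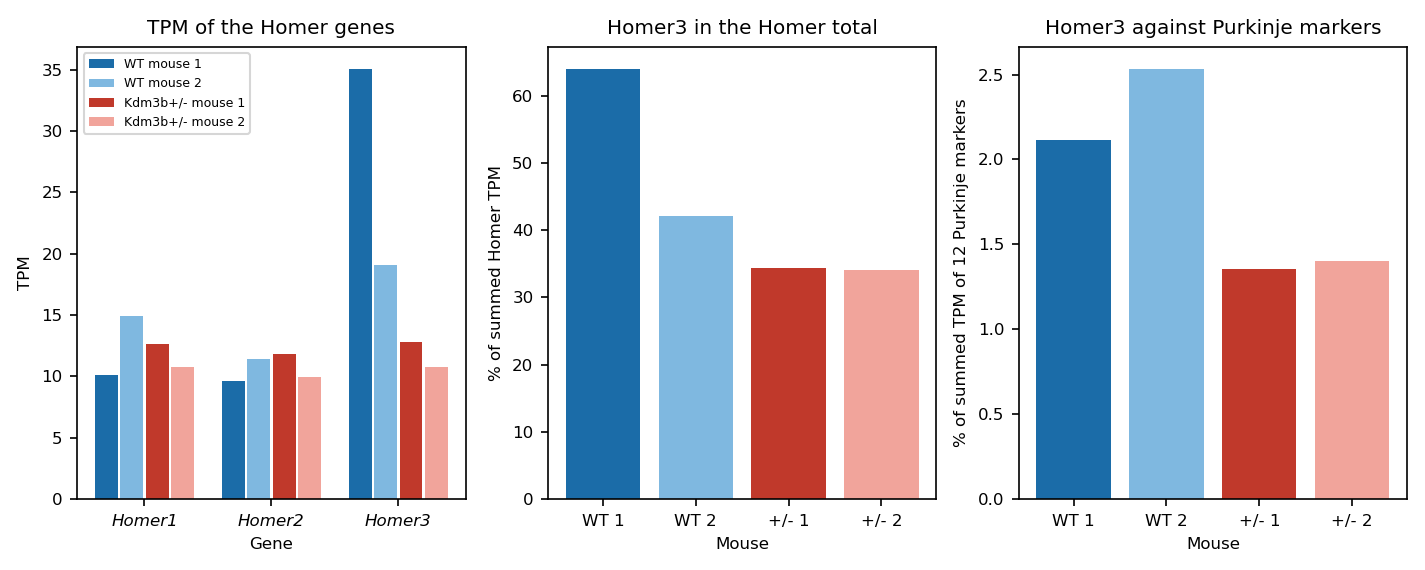
TPM of *Homer1*, *Homer2* and *Homer3* in each library (left), *Homer3* as a percent of the summed Homer TPM (middle), and *Homer3* as a percent of the summed TPM of 12 Purkinje cell markers (right), one bar per mouse with no error bars. Both WT bars are above both *Kdm3b*+/- bars in the middle (64.0 and 42.0 against 34.3 and 34.1) and right panels (2.11 and 2.54 against 1.35 and 1.40).

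Since GCE tissue is separated from Purkinje cells by hand, *Homer3* was also set beside 12 Purkinje cell markers. Their summed TPM was 1661 in WT mouse 1, 752 in WT mouse 2, and 942 and 769 in the *Kdm3b*+/- mice. All 12 markers were higher in WT mouse 1 than in both *Kdm3b*+/- mice, and 11 were higher than in WT mouse 2. Their median log2 fold change was -0.47, none was DEX, and 3 had an unadjusted p under 0.05, all of them lower in *Kdm3b*+/- mice. None of the markers was near 0, with the lowest value at 5.18. *Homer3* was 2.11% and 2.54% of the marker sum in WT and 1.35% and 1.40% in *Kdm3b*+/- mice. On the log2 scale the difference of this ratio was -0.75, without overlap (exact permutation test, two-sided p = 0.333), and it was -0.88 without WT mouse 1. With the mean of log2(TPM + 1) over the markers in place of their sum, the difference was -0.67. Both values hold for the list as a whole, and ratios to single markers were not taken. Single markers differed, as 5 of the 12 were lower without overlap and 7 overlapped. Among all tested genes, 32.0% were lower without overlap. In bulk tissue, fewer cells of a type and less RNA per cell cannot be told apart.

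Other cell types were checked in the same way. The summed TPM of 8 markers of astrocytes and Bergmann glia was 4047 and 3282 in WT and 2853 and 2760 in *Kdm3b*+/- mice, and the sum of 8 interneuron markers, such as *Gad1*, was 226 and 178 against 145 and 150. Both sums were lower in both *Kdm3b*+/- mice. Of the 8 glia markers, 4 were lower without overlap, 1 was higher without overlap and 3 overlapped. All 6 tested interneuron markers had a lower mean, and 5 of them were lower without overlap. Among all tested genes, 32.0% were lower without overlap and 19.2% were higher. Most of the interneuron sum came from *Gad1* (140 and 104 against 81.6 and 78.5), which was highest in WT mouse 1. Most of the glia sum came from *Aldoc* (3146 and 2468 against 2134 and 1824), while *Gfap* and *S100b* overlapped and the water channel gene *Aqp4* was DEX and higher in *Kdm3b*+/- mice (59.2 and 82.3 against 149.96 and 152 TPM, log2 fold change 1.10, adjusted p = 0.0329 from limma). Of the same list, *Gdf10*, a marker of Bergmann glia that was picked out after its values were seen, had a TPM of 51.7 and 25.7 against 19.4 and 15.6, the same order of the 4 mice as *Homer3*. The part of these cells in the members' values was not tested. Nor was it tested whether the RNA of *Aldoc* or *Gad1* came only from the cells that its list stands for. The granule cell sum (4932 and 5930 against 5099 and 5583) and the sums for oligodendrocytes (17450 and 15942 against 14758 and 17617), microglia (70.7 and 84.0 against 73.1 and 84.5) and endothelium (83.6 and 90.6 against 82.5 and 110) overlapped between the groups. Within the oligodendrocyte list, which is dominated by *Mbp*, the myelin gene *Mobp* was DEX and lower in *Kdm3b*+/- mice (925 and 893 against 471 and 482 TPM, log2 fold change -0.93, adjusted p = 0.0133 from limma). The first genes of these lists were *Gfap* (109 to 180 TPM), *Gad1* (78.5 to 140), *Cx3cr1* (6.32 to 9.26) and *Cldn5* (70.4 to 95.1).

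**Figure D4:**
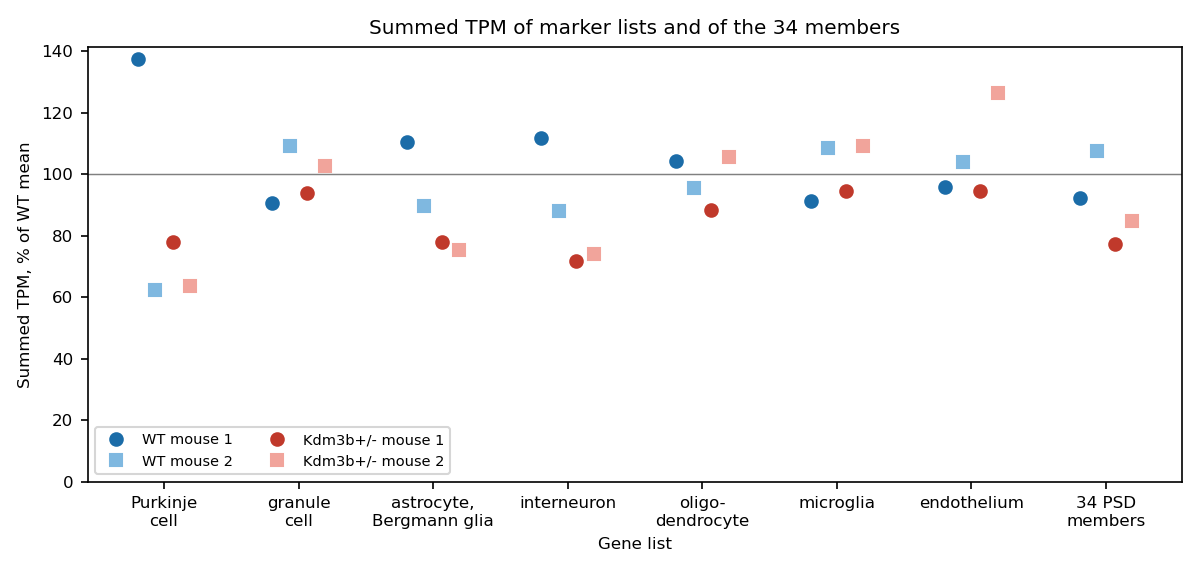
Summed TPM of 7 lists of cell type markers and of the 34 members in each library, as a percent of the WT mean of the same list. WT mouse 1 stands above the other 3 mice for the Purkinje cell list (1661 against 752, 942 and 769 TPM). Both *Kdm3b*+/- mice lie below both WT mice for the interneuron list, for the members and for the glia list. The interneuron sum is mostly *Gad1*, and the glia sum is mostly *Aldoc*. Of the 6 tested interneuron markers, 5 were lower in both *Kdm3b*+/- mice than in both WT mice. Within the glia list, 4 of 8 markers were lower in both *Kdm3b*+/- mice than in both WT mice, and *Aqp4* was higher in both.

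Of the exon bases of *Homer3* in the GENCODE annotation, 25.4% (874 of 3440) also belong to *Ddx49*, an RNA helicase gene on the opposite strand. Whether the counting used strand is not given in the sources used here, so reads from this stretch may belong to either gene. *Ddx49* stood at 38.6 and 45.1 TPM in WT and at 35.5 and 40.4 TPM in *Kdm3b*+/- mice, with a log2 fold change of -0.14 ± 0.15 (SE).

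Among genes for proteins that Homer binds or works with, 7 of 8 passed the TPM minimum, and none was DEX or had an unadjusted p under 0.05. *Itpr1*, the inositol trisphosphate receptor that is abundant in Purkinje cells, stood at 36.4 and 20.8 TPM in WT and at 21.3 and 17.5 TPM in *Kdm3b*+/- mice. As for *Homer3*, its highest value was in WT mouse 1, but here WT mouse 2 lay between the *Kdm3b*+/- mice. Relative to the Purkinje marker sum, *Itpr1* was 2.19% and 2.76% against 2.26% and 2.27%, so these groups overlapped.

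Shank proteins are large scaffolds that connect the Homer and Dlgap layers. *Shank2* (chromosome 7), a Shank gene of Purkinje cells, stood at 1.79 and 0.963 TPM in WT and at 0.806 and 0.957 TPM in *Kdm3b*+/- mice. Its groups were apart by less than the spread within them, since WT mouse 2 and *Kdm3b*+/- mouse 2 were nearly equal, and the log2 fold change was -0.32 ± 0.23 (SE, adjusted p = 0.501 from limma), or -0.06 without WT mouse 1. *Shank1* (chromosome 7) had 7.94 and 7.02 against 12.3 and 7.46, where *Kdm3b*+/- mouse 1 alone was high. Its log2 fold change of 0.33 was -0.00047 without that mouse. *Shank3* (chromosome 15) had 6.35 and 7.53 against 8.30 and 8.33, with both *Kdm3b*+/- mice above both WT mice, and a log2 fold change of 0.23 ± 0.17 (SE, adjusted p = 0.494), or 0.13 without WT mouse 1. As a share of the Shank total, *Shank2* was 11.1% and 6.21% in WT and 3.76% and 5.72% in *Kdm3b*+/- mice (exact permutation test, two-sided p = 0.333), and as a percent of the Purkinje marker sum its groups overlapped (0.108 and 0.128 against 0.0856 and 0.125).

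The Dlg genes encode membrane-associated guanylate kinases, which bind receptors and channels through PDZ domains. *Dlg1* (chromosome 16), which had the highest TPM of them, stood at 53.3 and 59.5 TPM in WT and at 44.5 and 46.3 TPM in *Kdm3b*+/- mice. This difference, -0.30 on the log2 scale, was larger than the gap between the mice of either group (0.16 and 0.06), with an unadjusted p of 0.0578 from limma (adjusted p = 0.307). *Dlg3* (chromosome X) had 23.6 and 28.6 against 19.99 and 23.4, where WT mouse 1 and *Kdm3b*+/- mouse 2 were nearly equal, and its log2 fold change of -0.25 was -0.08 with length and GC correction. *Dlg2* (chromosome 7) lay the other way, with 9.43 and 7.23 against 11.2 and 9.84 and a log2 fold change of 0.31 ± 0.18 (SE), or 0.14 without WT mouse 2. *Dlg4* (chromosome 11), which encodes the best known scaffold of the postsynaptic density, had 13.4 and 9.79 against 12.4 and 10.8, and its groups overlapped. As a share of the family TPM, *Dlg2* was 9.46% and 6.88% in WT and 12.7% and 10.9% in *Kdm3b*+/- mice. *Dlg1* was 53.5% and 56.6% against 50.5% and 51.3% (exact permutation test for each, two-sided p = 0.333). Mean read depth was 23.5 to 29.6 per base for *Dlg1*, 1.39 to 2.24 for *Dlg2* and 24.2 to 33.1 for *Dlg4*. The ranks and shares within the family therefore hold for TPM alone.

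Dlgap proteins bind the guanylate kinase domain of Dlg proteins and the PDZ domain of Shank. *Dlgap1* (chromosome 17) stood at 190 and 233 TPM in WT and at 166 and 169 TPM in *Kdm3b*+/- mice, a log2 fold change of -0.33 ± 0.14 (SE, unadjusted p = 0.0443, adjusted p = 0.281 from limma), or -0.18 without WT mouse 2. It made up most of the Dlgap total, with 83.5% and 83.7% in WT and 80.6% and 79.8% in *Kdm3b*+/- mice. The SD of the share was 0.130 percentage points in WT and 0.592 in *Kdm3b*+/- mice (n = 2 each), both smaller than the difference between the groups of -3.39 percentage points (exact permutation test, two-sided p = 0.333). *Dlgap3* ranged from 15.5 to 21.7 and *Dlgap4* from 21.8 to 24.7, both with overlap. *Dlgap2* was barely detected, at 0.164 to 0.317.

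**Figure D5:**
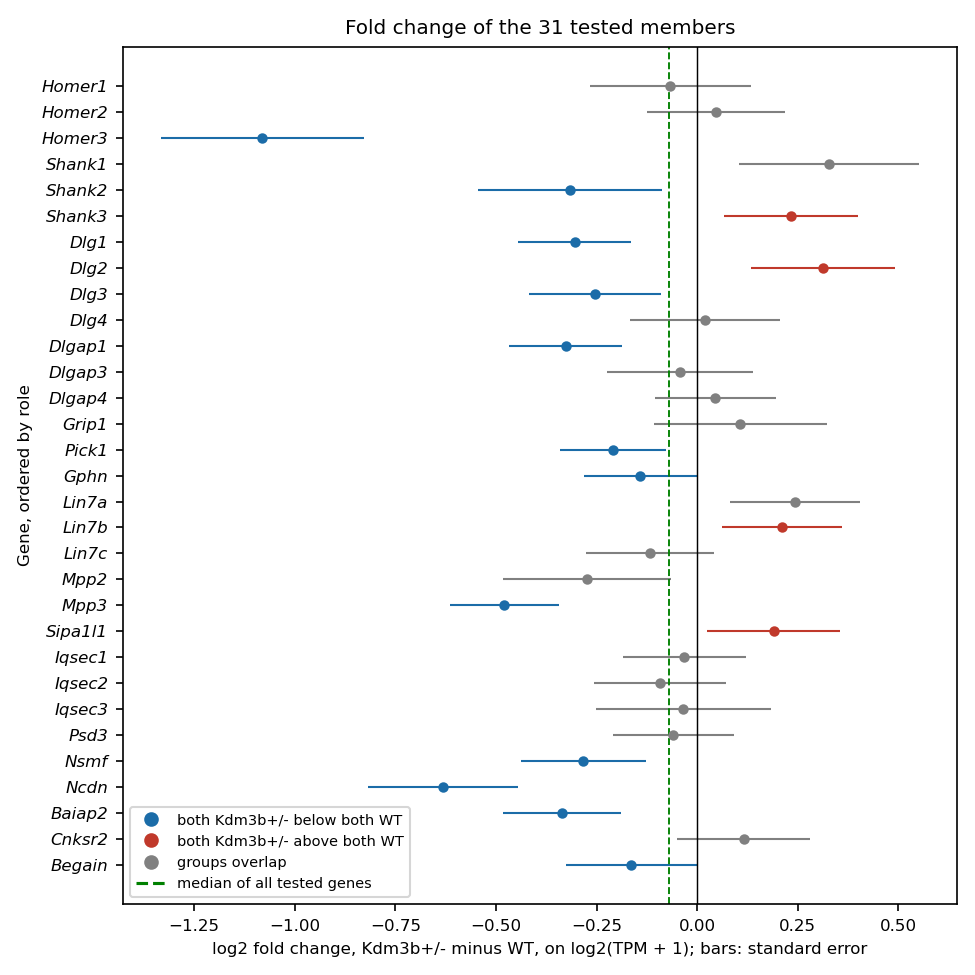
Log2 fold change (*Kdm3b*+/- minus WT, on log2(TPM + 1)) with its standard error for the 31 tested members, ordered by role, where the color gives whether both *Kdm3b*+/- mice lay below (blue) or above (red) both WT mice or the groups overlapped (grey), and the dashed line is the median of all tested genes (-0.07). *Homer3* lies farthest to the left at -1.08, followed by *Ncdn* at -0.63 and *Mpp3* at -0.48.

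The Lin7 proteins are small PDZ adaptors that join Cask and Mpp proteins, which are themselves membrane-associated guanylate kinases. *Mpp3* (NCBI gene 13384, chromosome 11, 101999653 to 102026955, reverse strand) stood at 326 and 362 TPM in WT and at 227 and 267 TPM in *Kdm3b*+/- mice. Both *Kdm3b*+/- values were lower, and the difference of -0.48 ± 0.14 on the log2 scale (SE, unadjusted p = 0.00613, adjusted p = 0.168 from limma) was larger than the gaps between mice of 1 group (0.15 and 0.24). It was -0.27 with length and GC correction. As a percent of the summed TPM of 10 granule cell markers, *Mpp3* was 6.62 and 6.10 in WT and 4.45 and 4.79 in *Kdm3b*+/- mice, again without overlap. *Mpp2*, on the same chromosome, had 14.7 and 20.3 against 11.95 and 16.6, with a gap of 0.44 within each group, and the groups overlapped. *Lin7b* (chromosome 7) had 54.9 and 45.4 against 59.6 and 56.3, with both *Kdm3b*+/- mice above both WT mice and a log2 fold change of 0.21 ± 0.15 (SE), or 0.02 with length and GC correction. *Lin7a* (81.3 to 115) and *Lin7c* (58.4 to 76.6) overlapped between the groups. Of the exon bases of *Lin7b*, 20.4% are shared with a noncoding gene on the opposite strand.

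Proteins that carry receptor signals or shape actin made up another group. *Ncdn* (NCBI gene 26562, chromosome 4, 126743750 to 126753429, reverse strand), which encodes neurochondrin, a neuronal cytoplasmic protein tied to glutamate receptor signaling, stood at 341 and 467 TPM in WT and at 222 and 298 TPM in *Kdm3b*+/- mice. The groups did not overlap, although *Kdm3b*+/- mouse 2 was closer to WT mouse 1 than the WT mice were to each other. The log2 fold change was -0.63 ± 0.19 (SE, unadjusted p = 0.00797, adjusted p = 0.175 from limma), and -0.38 with length and GC correction. Set against the granule cell marker sum, *Ncdn* was 6.91% and 7.88% in WT and 4.36% and 5.33% in *Kdm3b*+/- mice. Without *Kdm3b*+/- mouse 2, *Ncdn* was DEX (-0.84, adjusted p = 0.0246, where 1.38% of all tested genes were), and without WT mouse 2 the value was -0.40. *Ncdn* and *Homer3* are on the study's own list of DEX genes from these 4 libraries, so their direction here is not independent evidence. The paper also measured *Homer3* RNA by RT-qPCR in GCE samples from separate groups of WT and *Kdm3b*+/- mice. It reports the same tendency there as in its RNA-seq, but the difference between the genotypes was not significant. *Ncdn* was not among the genes measured in that way.

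*Baiap2*, which encodes an actin-binding partner of Shank, stood at 81.3 and 91.2 TPM in WT and at 62.5 and 73.9 TPM in *Kdm3b*+/- mice (log2 fold change -0.34 ± 0.15, SE, unadjusted p = 0.0472, adjusted p = 0.289 from limma), but its log2 fold change was -0.08 with length and GC correction. *Nsmf*, whose product travels from synapses to the nucleus, had 71.7 and 68.0 against 50.8 and 64.5, where *Kdm3b*+/- mouse 1 was the low one, and its log2 fold change of -0.28 was -0.07 with the same correction. *Begain*, a partner of Dlg proteins, had 7.85 and 7.80 against 6.53 and 7.25, with a log2 fold change of -0.16, which was 0.057 with that correction. *Cnksr2*, a scaffold of Ras signaling, ranged from 23.9 to 30.8 with overlap. Thus 4 of these 5 genes were lower in both *Kdm3b*+/- mice than in both WT mice, while 32.0% of all tested genes were. The 5 genes were grouped with earlier results of these data known. Over all tested members 12 of 31 were lower in this way, so the count is no result about this group.

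The regulators of small GTPases and the receptor adaptors showed small differences. *Iqsec1*, *Iqsec2*, *Iqsec3* and *Psd3*, which encode exchange factors for Arf GTPases, had log2 fold changes between -0.09 and -0.03, and the groups of all 4 overlapped. With median-ratio scaling the values of *Iqsec1*, *Iqsec3* and *Psd3* lay just above 0. *Sipa1l1*, a GTPase-activating protein for Rap, stood at 5.89 and 6.59 TPM in WT and at 7.26 and 7.23 TPM in *Kdm3b*+/- mice (log2 fold change 0.19 ± 0.16, SE). *Kalrn*, another exchange factor for small GTPases, was below the TPM minimum at 0.442 to 0.701. *Pick1*, an adaptor of AMPA receptors, had 113 and 123 against 98.1 and 106 (log2 fold change -0.21 ± 0.13, SE), and 18.6% of its exon bases are shared with a second gene model on the same strand. The adaptor *Grip1* was found at 0.681 to 1.196 TPM, with overlap and a log2 fold change of 0.11 ± 0.21 (SE), at a mean read depth of only 0.0873 to 0.174 per base. *Grip2* was below the TPM minimum at 0.456 to 0.977.

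*Gphn*, which encodes gephyrin, the scaffold of glycine and GABA-A receptors, stood at 49.7 and 55.2 TPM in WT and at 46.9 and 47.9 TPM in *Kdm3b*+/- mice. The difference of -0.14 ± 0.14 on the log2 scale (SE) was smaller than the gap between the WT mice (0.15), and it was -0.07 with median-ratio scaling. All 5 genes of its partners were tested, and none was DEX. *Nlgn2*, an adhesion molecule of inhibitory synapses, had 7.38 and 7.47 against 10.1 and 10.7 (log2 fold change 0.44, unadjusted p = 0.0209, adjusted p = 0.231 from limma). *Glrb* (196 and 207 against 184 and 161) and *Lhfpl4* (26.4 and 28.1 against 22.4 and 25.1) lay lower in both *Kdm3b*+/- mice.

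Of 33 further genes of the postsynaptic density, 28 passed the TPM minimum and none was DEX by limma. An unadjusted p under 0.05 was found for 6, all lower in *Kdm3b*+/- mice, and the groups did not overlap for 10, all lower. These are 21.4% and 35.7% of the 28, beside 17.0% and 51.3% of all tested genes. Their median log2 fold change was -0.10, beside -0.07 for all tested genes. *Camk2b*, a subunit of the calcium- and calmodulin-dependent kinase, was the most abundant, at 519 and 623 TPM in WT and at 345 and 428 TPM in *Kdm3b*+/- mice (log2 fold change -0.56 ± 0.15, SE, unadjusted p = 0.00416, adjusted p = 0.152). Without *Kdm3b*+/- mouse 2 it was DEX (-0.72, adjusted p = 0.0371), and with length and GC correction the value was -0.34. The other genes named by the same rule were 4 linked to actin or to Arf. *Dbn1*, which encodes the actin-binding protein drebrin, had 19.1 and 18.8 against 13.1 and 14.9, and *Psd*, an exchange factor for Arf, had 48.2 and 65.3 against 39.9 and 44.9. *Cyfip1* (19.2 and 22.9 against 14.4 and 16.2) and *Cyfip2* (128 and 157 against 109 and 112) encode parts of the complex that drives actin branching.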

How the data were processed

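Bulk RNA-seq of GCE tissue was examined in 2 WT and 2 *Kdm3b*+/- mice, grouped by the genotype in the labels. The authors trimmed the reads, aligned them with STAR, estimated abundance with StringTie and deposited 1 table per library. The deposited coverage is the mean read depth of a gene, the deposited FPKM is scaled by the authors to length and mapped fragments, and the deposited TPM to length and 1000000 per library. The genome build and tool versions are not given in the sources used here. Gene positions are those of the deposited tables. Symbols came from a RefSeq table and matched 24462 of 24532 identifiers, and entries of 1 identifier were summed (220 had several, none of them a member). No read counts were derived from the tables. The study's DESeq2 step needs counts and was not repeated. Its methods word the fold-change threshold of 1.2 on the log2 scale, while a linear 1.2-fold was used here. The paper also names as DEX some genes whose reported log2 fold changes lie below 1.2, such as *Cbln1* and *Ntf3*.

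log2(TPM + 1) was fitted with limma version 3.58.1 (eBayes with trend) run in R version 4.3.3, with genotype alone as a term and Benjamini-Hochberg adjustment over the 13652 genes whose mean TPM reached 1. The added 1 makes fold changes of rarely expressed genes too small. With 2 mice per group, the p-values rest on a spread shared across genes. Shares and ratios were compared with an exact permutation test (SciPy version 1.17.1). The fit was tested on simulated data. The 34 members, the pathway and marker lists and the tests were chosen with earlier results of these data known. Named genes are *Kdm3b*, all members, and up to 5 genes per pathway list with the smallest p among those whose groups did not overlap. Some genes that this rule names are not reported here. *Itpr1*, *Gdf10*, *Ddx49*, *Aldoc*, *Aqp4* and *Mobp* were added after their values were seen. Values in every library are given for the Homer, Shank and Dlg genes, *Ncdn*, and members with an unadjusted p under 0.05 or a fold change over 1.2.

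The alternatives were a pseudocount of 0.1, no TPM minimum, a minimum of 5, median-ratio scaling, FPKM, the highest entry per gene, eBayes without trend, robust eBayes (statmod version 1.5.0), the adjusted p alone, a block for the replicate number, loess correction for length and GC content of transcripts (alone and with the block), and leaving out each library. Length and GC content came from the longest GENCODE transcript of GRCm38 and were found for 12904 tested genes (94.5%), all tested members among them.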

Additional observations from a re-analysis of the deposited data

How the results depend on the processing

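The count of 63 DEX genes became 1 without the TPM minimum, 37 with eBayes without trend, 38 with FPKM and 600 with the replicate block, and was between 21 and 188 with each library left out. No member was DEX under the other settings, but 3 were with the replicate block (*Homer3*, adjusted p = 0.00826, *Ncdn*, 0.0153, and *Mpp3*, 0.0395), where 4.39% of all tested genes were, as was *Camk2b* (0.0212), and between 0 and 1 with a library left out. Mice carry the number 1 or 2 within each genotype in the labels, same-numbered mice are different animals, and their deviations correlated at 0.121 across genes (0.0229 after length and GC correction, where the block called 59 genes and no member). Members without overlap between groups numbered between 19 and 27 of 31 with a library left out, since fewer libraries have to be apart. The share of all tested genes is not given for these settings, so the counts are no result about the members. The difference in the *Homer3* share was between -29.8 and -7.80 percentage points, and that of the log2 ratio to Purkinje markers between -0.88 and -0.62. The share of members with a lower mean was 20 of 31, 15 with median-ratio scaling and with length and GC correction, and 16 with FPKM.

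Among 462 values of members under alternatives, 39 had the other sign. No member was DEX in the main fit, so each sign change had to fall on a gene that was not DEX. With median-ratio scaling the log2 fold change was 0.00070 in *Homer1*, 0.027 in *Dlgap3*, 0.037 in *Iqsec1*, 0.015 in *Iqsec3* and 0.011 in *Psd3*. With FPKM it was 0.018 in *Dlgap3*, 0.029 in *Iqsec1*, 0.0027 in *Iqsec3* and 0.0040 in *Psd3*. With length and GC correction, with or without the replicate block, it was 0.19 in *Dlgap3*, 0.061 in *Iqsec1*, 0.088 in *Iqsec2*, 0.065 in *Iqsec3* and 0.057 in *Begain*, and also 0.044 in the gephyrin partner *Lhfpl4*, which is not a member. With a library left out, ranges that crossed 0 were -0.33 to 0.19 (*Homer1*), -0.065 to 0.16 (*Homer2*), -0.00047 to 0.66 (*Shank1*), -0.19 to 0.23 (*Dlg4*), -0.27 to 0.19 (*Dlgap3*), -0.030 to 0.12 (*Dlgap4*), -0.086 to 0.30 (*Grip1*), -0.26 to 0.028 (*Lin7c*), -0.13 to 0.062 (*Iqsec1*), -0.18 to 3.5e-05 (*Iqsec2*), -0.29 to 0.22 (*Iqsec3*), -0.18 to 0.058 (*Psd3*) and -0.060 to 0.29 (*Cnksr2*). The cause was not tested. *Dlgap2*, *Grip2* and *Kalrn* were too low to be tested, and *Grip1* had a read depth under 1 per base.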
